A study of Homo sapiens with 4 samples.

Results

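Interferon-stimulated antiviral genes are the genes that cells switch on in response to interferons and that interfere with virus entry, replication or release. The 48 genes described here were taken by symbol from a list of such genes. All 48 have a row among the 27356 genes of the deposited tables. They were grouped by role into RNA sensors (3 genes), RNA-binding and RNA-degrading effectors (12), the ISG15 conjugation system (5), GTPases (5), membrane and budding effectors (7), PARP and DTX3L genes (4), nuclear body proteins (2) and other induced proteins (10).

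Type I and type III interferons signal through JAK kinases to a complex of STAT proteins and IRF9, which binds a DNA element called the interferon-stimulated response element (ISRE). Interferon gamma acts through STAT dimers, which bind a different element, the gamma-activated sequence (GAS). In skin, keratinocytes can both produce interferons, interferon kappa among them, and respond to them.

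RNA was sequenced from HaCaT, an immortalised human keratinocyte line without any stated genetic change. The control group (PBS, 2 libraries) received phosphate-buffered saline, and the treated group (M5, 2 libraries) a cytokine mix, both for 72 h from a plating density of 50%. The mix holds IL-1α, IL-17, IL-22, TNF-α and Oncostatin M, each at 10 μg/L, so none of its 5 members is an interferon. The question the design addresses is how M5 alters the keratinocyte transcriptome. For the M5 libraries a treatment tag instead gives DAC at 25 μM, an abbreviation the labels do not spell out, whereas titles and protocols name M5, and the titles were followed. Whether replicates came from separate cultures is not stated, and p-values here measure only how far these libraries spread, which may be technical variation.

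Library totals ran from 15858644 to 16051974 counts in PBS and from 18992988 to 19749612 in M5. All 8 keratinocyte markers had a row, with KRT14 at 1318 to 1534 FPKM (fragments per gene length and library total). Of these markers 6 rose, KRT17 most (log2 fold change 2.17) and KRT6A next (1.28), KRT5 fell by 0.96 on the log2 scale and DSP did not pass. Of 7 leukocyte markers, PTPRC, LILRA4 and CLEC4C were among those without a row, CD3E and ITGAM held at most 7 counts in any library, and CD14 was at 2.30 and 1.55 FPKM in PBS and 4.64 and 5.10 in M5 (log2 fold change 1.49, adjusted p = 1.91e-05). The summed FPKM of the 3 leukocyte markers with a row was 1.61 to 2.39 in PBS and 4.67 to 5.18 in M5. The summed FPKM of the fibroblast, endothelial and melanocyte markers stayed under 1 in every library (3 markers each with a row, led by COL1A1, CDH5 and PMEL). The part of other cells in the results below was not tested. Of 18 germline genes, 4 had a row, and the most abundant, HORMAD1, held 58 and 50 counts in PBS and 66 and 76 in M5 (log2 fold change 0.26, adjusted p = 0.385).

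The promoter windows of several members hold the letters of an ISRE. They are printed first because such letters stand both in members that rose strongly and in members that did not pass the test. Promoter sequences (RefSeq, GRCh38.p14, 250 bases before to 50 bases after the start) were matched by symbol for 41 of the 48 members. An ISRE core was searched as GAAANNGAAA, 2 copies of GAAA separated by any 2 bases, on either strand, and overlapping copies were counted separately. Each line below gives 80 bases, 5′ to 3′ on the strand of the gene, with ISRE cores in capitals (GAAA on the gene's strand, TTTC where the core lies on the other strand). ISG15, IFI6, IFITM3 and IFIT1 stand for members that rose, and IFIT5, HERC5, EIF2AK2 and EPSTI1 for members with the smallest or opposite changes. RSAD2 stands for a member that rose without a core of the searched spacing in its window. Its line holds GAAACGAAA, in which 2 copies of GAAA lie closer together, and the search did not count such a form.
ISG15, chr1:1013352-1013431, plus strand: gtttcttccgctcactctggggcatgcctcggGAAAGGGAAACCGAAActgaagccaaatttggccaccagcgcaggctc
IFI6, chr1:27672273-27672352, minus strand: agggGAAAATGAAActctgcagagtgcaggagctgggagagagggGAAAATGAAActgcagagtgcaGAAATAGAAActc
IFITM3, chr11:320860-320939, minus strand: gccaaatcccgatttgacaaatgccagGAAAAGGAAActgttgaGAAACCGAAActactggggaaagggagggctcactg
IFIT1, chr10:89392478-89392557, plus strand: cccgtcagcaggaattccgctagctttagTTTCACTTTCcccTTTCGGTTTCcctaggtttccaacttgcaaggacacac
IFIT5, chr10:89414508-89414587, plus strand: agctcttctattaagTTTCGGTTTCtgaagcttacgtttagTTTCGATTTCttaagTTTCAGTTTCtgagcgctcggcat
HERC5, chr4:88456984-88457063, plus strand: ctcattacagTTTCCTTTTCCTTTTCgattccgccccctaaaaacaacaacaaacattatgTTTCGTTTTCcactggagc
EIF2AK2, chr2:37156942-37157021, minus strand: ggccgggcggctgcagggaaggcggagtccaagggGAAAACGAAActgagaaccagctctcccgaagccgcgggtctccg
EPSTI1, chr13:42992247-42992326, minus strand: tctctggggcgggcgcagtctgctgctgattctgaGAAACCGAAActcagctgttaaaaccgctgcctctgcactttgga
RSAD2, chr2:6865805-6865884, plus strand: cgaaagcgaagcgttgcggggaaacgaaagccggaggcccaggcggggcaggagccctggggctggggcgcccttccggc

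An ISRE core was found in 27 of the 41 member promoters (65.9%), against 1255 of all 35116 promoters of the same length (3.57%). More than 1 core was found in 14 members, with 3 each in IFI6, IFIH1, IFIT5 and HERC5. A GAS core, TTCNNNGAA, was found in 11 of the 41 (26.8%) against 7.66% of all promoters, and in BST2, EPSTI1, IFI27 and IFITM1 it overlapped an ISRE core. The binding motif of NF-kB, another factor acting downstream of TNF-α and IL-1α, was found in 7 (17.1%) against 11.3%, and overlapped neither core. A match describes letters in a window and does not show a bound site.

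**Figure D1:**
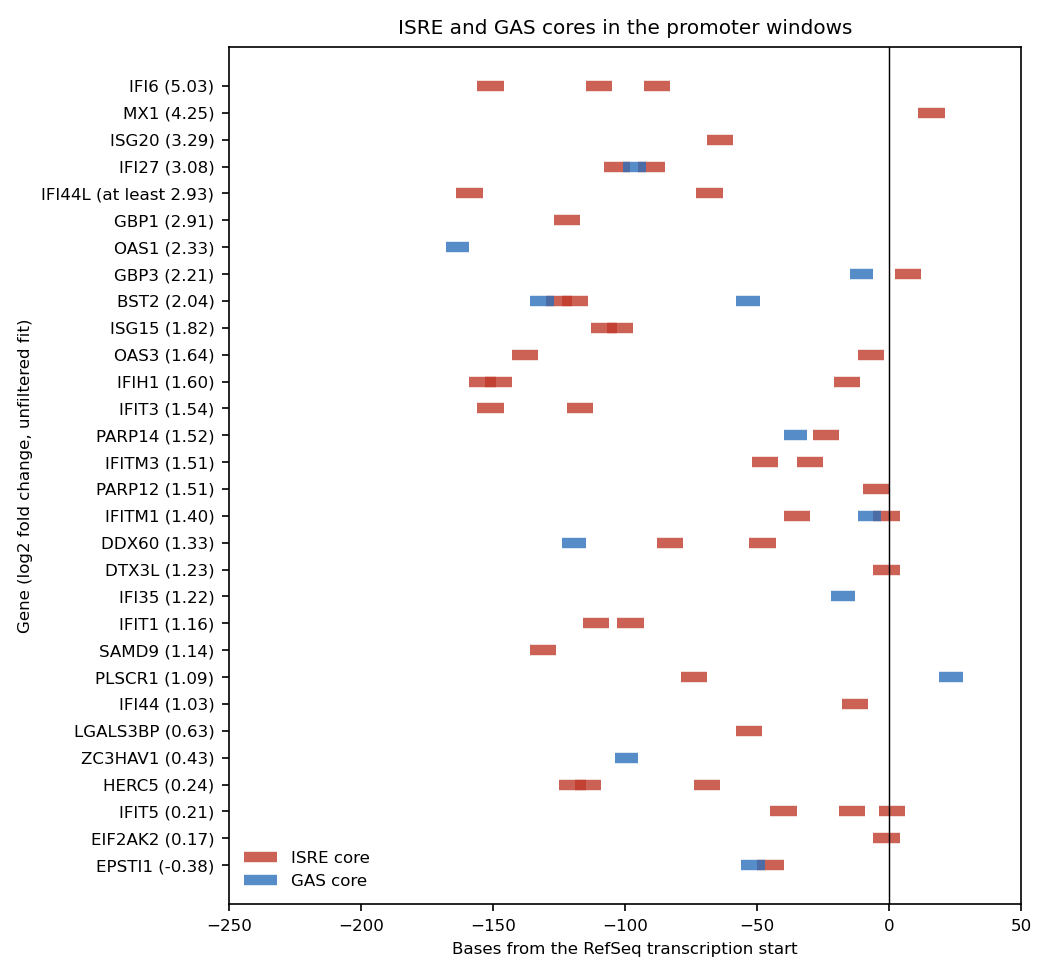
Position of ISRE cores (red) and GAS cores (blue) in the promoter windows of the 30 members with at least 1 of them, in bases from the RefSeq start (x axis), with genes ordered by the log2 fold change of the fit without a filter (y axis, value in brackets, a lower bound for IFI44L with 0 counts in PBS). HERC5, IFIT5, EIF2AK2 and EPSTI1 at the bottom hold ISRE cores as IFI6 at the top does.

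Most of these genes were higher with M5. The members together made up 0.204% and 0.200% of the counts in PBS and 0.418% and 0.445% in M5, and their summed FPKM went from 410 and 394 to 847 and 898. In each role the summed FPKM of both M5 libraries lay above that of both PBS libraries. The largest changes were in genes that were low in PBS, such as IFI6 and RSAD2, and the most abundant member in both groups was IFITM3. In these bulk samples a larger share of cells expressing a gene and more RNA per cell cannot be told apart.

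Genes whose FPKM averaged at least 1 across all 4 libraries were tested with edgeR's quasi-likelihood test, and an adjusted p under 0.05 was counted as a change. Of the 39 members that entered the test, 36 rose (28.8% of the 10809 genes tested rose), 31 of them at least 2-fold (6.48% of all tested), and 1 fell (27.1% of all tested). IFIT5 and HERC5 did not pass. The median log2 fold change of the 39 was 1.38, and that of all genes tested was -0.01. The filter passes a gene that is near 0 in PBS when it is high in M5. Thus 8 of the 39, with a PBS mean under 1 FPKM, had to be higher in M5 to enter the test. These were OAS1, OAS2, ISG20, GBP1, RSAD2, CMPK2, SP110 and IFI6. Among the 31 members with a PBS mean of at least 1 FPKM, 28 rose, 23 of them at least 2-fold, with a median of 1.20. The shares over all genes given above cover all 10809 tested, and those for genes with such a PBS mean are not given. The remaining 9 members, RIGI, MX1, MX2, GBP2, BST2, IFI27, IFI44L, XAF1 and SAMD9L, were below the filter. In a fit of all 27356 genes without a filter, 44 of the 48 members were higher (12.4% of all genes were higher in that fit), none was lower and the median was 1.53, also with IFI44L, at 0 counts in PBS, set to its lower bound. The count of members higher in that fit fell when any library was left out, and most when an M5 replicate was. The share of all genes higher in those fits is not given. A loss particular to the members therefore cannot be told from a general loss of calls.

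**Figure D2:**
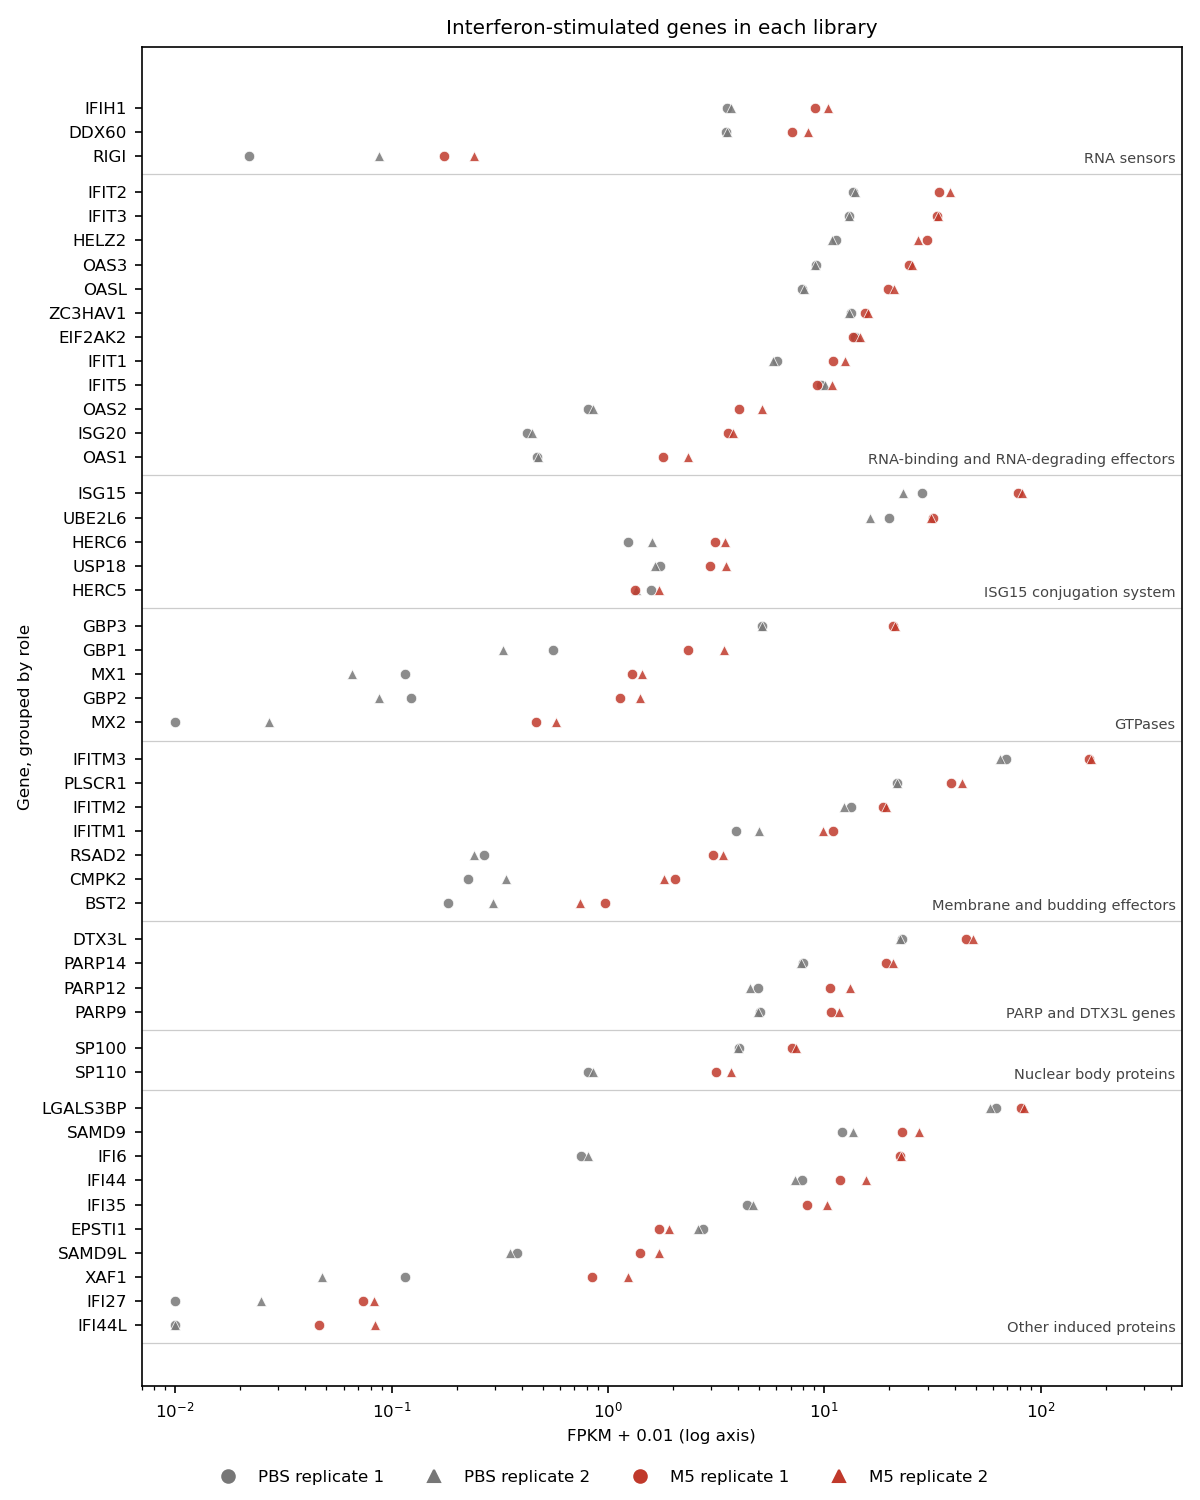
FPKM + 0.01 on a log axis (x axis) of each of the 48 members (y axis, grouped by role) in the 2 PBS libraries (grey) and the 2 M5 libraries (red), with circles for replicate 1 and triangles for replicate 2. Red points lie to the right of grey points for all members except EPSTI1, where they lie to the left, and IFIT5, EIF2AK2 and HERC5, where the groups overlap. The share of all genes whose groups lie apart in this way is not given.

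The RNA sensors detect viral RNA in the cytosol. IFIH1 (MDA5), which binds long double-stranded RNA (ENSG00000115267, chromosome 2, 162267079 to 162318703), was at 3.55 and 3.71 FPKM in PBS and 9.09 and 10.4 in M5. The groups did not overlap, and the rise was 2.98-fold (log2 1.57, SE 0.10, adjusted p = 8.31e-11). DDX60, a helicase reported to act with RIGI-like receptors, rose by 1.30 on the log2 scale. RIGI, which senses RNA with 5′ triphosphates, was below the filter, with 2 and 13 counts in PBS and 33 and 48 in M5. Its log2 fold change without a filter was 2.31 (95% interval 1.07 to 3.55, adjusted p = 0.0115). The value was 1.53 without PBS replicate 1 and 4.16 without PBS replicate 2, when 2 control counts remain, and it did not pass without either M5 replicate (adjusted p = 0.279 and 0.379).

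Among the RNA-binding and RNA-degrading effectors 11 of 12 rose (28.8% of all genes tested rose), 9 of them at least 2-fold (6.48% of all tested). Their median was 1.51. ISG20, OAS1 and OAS2 had to be higher in M5 to enter the test. ISG20, an exonuclease that degrades RNA (ENSG00000172183, chromosome 15, 88636153 to 88656483), was at 0.413 and 0.434 FPKM in PBS and 3.57 and 3.78 in M5. This was the largest change of the role, 9.63-fold (log2 3.27, SE 0.16, adjusted p = 1.55e-12). The OAS enzymes make the second messenger that activates RNase L, and all 3 rose, OAS2 by 2.63, OAS1 by 2.31 and OAS3 by 1.61 on the log2 scale. OASL, a relative without synthetase activity, rose by 1.50, and HELZ2, a helicase and transcriptional coactivator, by 1.51.

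The 4 IFIT genes of the list lie close together on chromosome 10 between 89283694 and 89421001. IFIT1 and IFIT5 bind RNA 5′ ends, and IFIT3 is a partner of IFIT1. IFIT2 (ENSG00000119922), the most abundant member of the role, was at 13.6 and 13.9 FPKM in PBS and 33.7 and 37.9 in M5. It rose 2.89-fold (log2 1.53, SE 0.07, adjusted p = 4.77e-13), next to rises of 1.51 for IFIT3 and 1.13 for IFIT1. IFIT5 (ENSG00000152778), the last of the 4 by position, was at 9.61 and 10.1 FPKM in PBS and 9.23 and 10.9 in M5. Its groups overlapped, and the log2 fold change of 0.18 (95% interval -0.01 to 0.37, adjusted p = 0.0977) did not pass. Without M5 replicate 1 it passed at 0.29 (adjusted p = 0.00821). The interval of IFIT5 lay wholly below those of its 3 neighbours, the lowest of which, for IFIT1, ran from 0.94 to 1.32, although its promoter window holds 3 ISRE cores and that of IFIT1 and IFIT3 2 each. The difference between neighbouring genes was not tested.

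EIF2AK2 and ZC3HAV1 of the same role changed little. EIF2AK2 (PKR), the kinase that halts translation when it binds double-stranded RNA (ENSG00000055332, chromosome 2, 37099210 to 37157065), was at 13.9 and 14.3 FPKM in PBS and 13.6 and 14.6 in M5, and is given by library after its values were seen. The groups overlapped on this scale. With TMM scaling its log2 fold change was 0.15 (SE 0.06, adjusted p = 0.0407), and without TMM factors it was -0.00384 (adjusted p = 0.961). It did not pass without PBS replicate 1 (adjusted p = 0.285), PBS replicate 2 (adjusted p = 0.129) or M5 replicate 2 (adjusted p = 0.112). ZC3HAV1 (ZAP), which targets CpG-rich viral RNA, rose by 0.40.

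ISG15 is a ubiquitin-like protein that is attached to other proteins by a chain of enzymes. ISG15 (ENSG00000187608, chromosome 1, 1001138 to 1014540) was at 28.3 and 23.1 FPKM in PBS and 78.4 and 81.8 in M5. The groups were well apart, and the rise was 3.46-fold (log2 1.79, SE 0.09, adjusted p = 5.67e-12). UBE2L6, the conjugating enzyme, rose by 0.95, HERC6, a relative of the ligase HERC5, by 1.37, and USP18, which removes ISG15 and also dampens the type I interferon receptor, by 1.09 on the log2 scale. HERC5, the main ISG15 ligase in human cells (ENSG00000138646, chromosome 4, 88457117 to 88506163), was at 1.58 and 1.33 FPKM in PBS and 1.33 and 1.71 in M5. Its groups overlapped and its log2 fold change of 0.21 (95% interval -0.21 to 0.63, adjusted p = 0.381) did not pass, while HERC6 next to it rose with an interval of 1.04 to 1.70. USP18 shares 23.4% of its 50-base sequences with other genes, chiefly USP41, so its counts depend on how reads with several alignments were treated.

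The GTPases were nearly silent in PBS, apart from GBP3. The guanylate-binding proteins attack the membranes around intracellular microbes, and the MX proteins trap viral nucleocapsids. GBP1 (ENSG00000117228, chromosome 1, 89052319 to 89065360) was at 0.548 and 0.316 FPKM in PBS and 2.35 and 3.42 in M5, and rose 7.40-fold (log2 2.89, SE 0.24, adjusted p = 4.88e-09). GBP3 (ENSG00000117226), its neighbour and the most abundant of the role, was at 5.12 and 5.15 FPKM in PBS and 20.7 and 21.3 in M5. That is a rise of 4.54-fold (log2 2.18, SE 0.08, adjusted p = 1.31e-14) with no overlap between groups.

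The other 3 GTPases were below the filter. MX1 held 30 and 16 counts in PBS and 438 and 506 in M5, with a log2 fold change of 4.25 without a filter (95% interval 3.76 to 4.74, adjusted p = 1.06e-07). MX2 held 0 and 4 counts in PBS and 126 and 162 in M5, with a value of 5.98 (adjusted p = 5.44e-06). For MX2 the value was 5.03 without PBS replicate 1. Without PBS replicate 2 the remaining control library held 0 counts, and M5 was at least 43.8-fold higher against a floor of 3 counts in that library. MX2 did not pass without M5 replicate 1 (adjusted p = 0.0713) or M5 replicate 2 (adjusted p = 0.0781). GBP2, with 13 and 9 counts against 155 and 199, had a value of 3.89 (adjusted p = 1.57e-06). In all 3 genes both M5 libraries were far above both PBS libraries.

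All 6 tested membrane and budding effectors rose (28.8% of all genes tested rose), of which RSAD2 and CMPK2 had to be higher in M5 to enter the test. RSAD2 (viperin), which makes a chain-terminating nucleotide (ENSG00000134321, chromosome 2, 6865806 to 6898239), was at 0.256 and 0.231 FPKM in PBS and 3.06 and 3.38 in M5. The rise was 14.6-fold (log2 3.87, SE 0.20, adjusted p = 7.31e-12). CMPK2, a nucleotide kinase whose gene lies head to head with RSAD2, rose by 2.97. No ISRE core of the searched spacing was found in the windows of either gene, but that of RSAD2 holds the closer form GAAACGAAA. IFITM3, which blocks virus fusion at endosomes (ENSG00000142089, chromosome 11, 319669 to 327537), was the most abundant of the 48 at 69.1 and 65.0 FPKM in PBS and 168 and 171 in M5. It rose 2.80-fold (log2 1.49, SE 0.06, adjusted p = 4.64e-14) with no overlap between groups.

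The neighbours IFITM1 and IFITM2 rose by 1.38 and 0.72, and the phospholipid scramblase PLSCR1 by 1.06 on the log2 scale. The exons of IFITM1 and IFITM2 overlap by 351 bases, 32.5% and 22.7% of their lengths, and 32.0% to 35.2% of the 50-base sequences of the 3 IFITM genes occur in another gene, so their separate values are uncertain. BST2 (tetherin), which holds budding virus at the cell surface, had 3 and 5 counts in PBS and 20 and 16 in M5. Its log2 fold change without a filter was 2.04 (95% interval 0.77 to 3.31, adjusted p = 0.0247), and it did not pass without PBS replicate 1 (adjusted p = 0.102), M5 replicate 1 (adjusted p = 0.202) or M5 replicate 2 (adjusted p = 0.138).

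The PARP and DTX3L genes changed by similar amounts, with log2 fold changes from 1.20 to 1.50. All 4 rose (28.8% of all genes tested rose). PARP14, a mono-ADP-ribosyltransferase (ENSG00000173193, chromosome 3, 122680618 to 122730840), was at 7.99 and 7.76 FPKM in PBS and 19.3 and 20.7 in M5, a rise of 2.82-fold (log2 1.50, SE 0.06, adjusted p = 1.47e-13). DTX3L, the ubiquitin ligase that partners PARP9 (ENSG00000163840, chromosome 3, 122564238 to 122575203), was the most abundant, at 22.8 and 22.4 FPKM in PBS and 45.4 and 48.5 in M5. It rose by 1.20 (SE 0.06, adjusted p = 1.84e-12). PARP9 and DTX3L share a head-to-head promoter region with 217 bases of exon overlap on opposite strands, and PARP9 rose by 1.32. PARP12, a relative that inhibits translation, rose by 1.48.

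Both nuclear body proteins rose (28.8% of all genes tested rose), of which SP110 had to be higher in M5 to enter the test. SP110 (ENSG00000135899, chromosome 2, 230167293 to 230225729) was at 0.803 and 0.840 FPKM in PBS and 3.14 and 3.69 in M5, 4.62-fold higher (log2 2.21, SE 0.12, adjusted p = 1.21e-11). SP100 (ENSG00000067066, chromosome 2, 230415942 to 230544090) was at 4.03 and 3.98 FPKM in PBS and 7.10 and 7.42 in M5, 2.01-fold higher (log2 1.01, SE 0.06, adjusted p = 9.99e-11). Neither pair of groups overlapped. Exons of SP110 overlap an antisense RNA over 18.4% of their length, and that RNA held at most 4 counts in any library.

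The other induced proteins held both the largest rise of the 39 tested members and the only fall. IFI6, a membrane protein that inhibits cell death and flavivirus replication (ENSG00000126709, chromosome 1, 27666061 to 27672218), was at 0.741 and 0.799 FPKM in PBS and 22.3 and 22.7 in M5. The groups were far apart, at 32.1-fold (log2 5.01, SE 0.22, adjusted p = 3.61e-13). LGALS3BP, a secreted glycoprotein (ENSG00000108679, chromosome 17, 78971238 to 78980109), was the most abundant of the role, at 62.2 and 58.2 FPKM in PBS and 81.0 and 83.7 in M5, and rose 1.52-fold (log2 0.60, SE 0.06, adjusted p = 3.69e-08). SAMD9, a restriction factor of poxviruses, rose by 1.12, IFI35 by 1.19 and IFI44 by 1.00.

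EPSTI1 (ENSG00000133106, chromosome 13, 42886388 to 42992271), an interferon-induced gene also known from epithelial-stromal contact, was at 2.74 and 2.61 FPKM in PBS and 1.72 and 1.91 in M5. Both M5 libraries lay below both PBS libraries, and it fell by 0.41 on the log2 scale (SE 0.16, 95% interval -0.74 to -0.07, adjusted p = 0.0362). The call was lost without PBS replicate 1 (adjusted p = 0.165), PBS replicate 2 (adjusted p = 0.0800) or M5 replicate 1 (adjusted p = 0.134). Its window holds an ISRE core that overlaps a GAS core.

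The other 4 genes of the role were below the filter. XAF1, a proapoptotic protein, held 11 and 4 counts in PBS and 105 and 161 in M5 (log2 4.02 without a filter, adjusted p = 1.68e-05), but 4.92 without PBS replicate 1, and it did not pass without M5 replicate 1 (adjusted p = 0.0607) or M5 replicate 2 (adjusted p = 0.0765). Exons of XAF1 overlap the gene PRAL on the opposite strand over 38.3% of their length, and PRAL held at most 3 counts in any library. Of the 50-base sequences of XAF1, 34.7% occur in PRAL, so the counts of XAF1 depend on how shared reads were assigned. SAMD9L, the neighbour of SAMD9, held 47 and 44 counts against 212 and 271 (log2 2.30, adjusted p = 6.57e-06). IFI44L had 0 counts in both PBS libraries and 8 and 17 in M5, at least 7.64-fold higher against a floor of 3 counts over the PBS libraries together. It passed without a filter (adjusted p = 0.00717), but not without M5 replicate 1 (adjusted p = 0.165) or M5 replicate 2 (adjusted p = 0.251). IFI27 held 0 and 1 counts in PBS and 5 and 6 in M5, a ratio of 10.1 with a 95% counting interval of 1.47 to 434, and did not pass (adjusted p = 0.185).

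**Figure D3:**
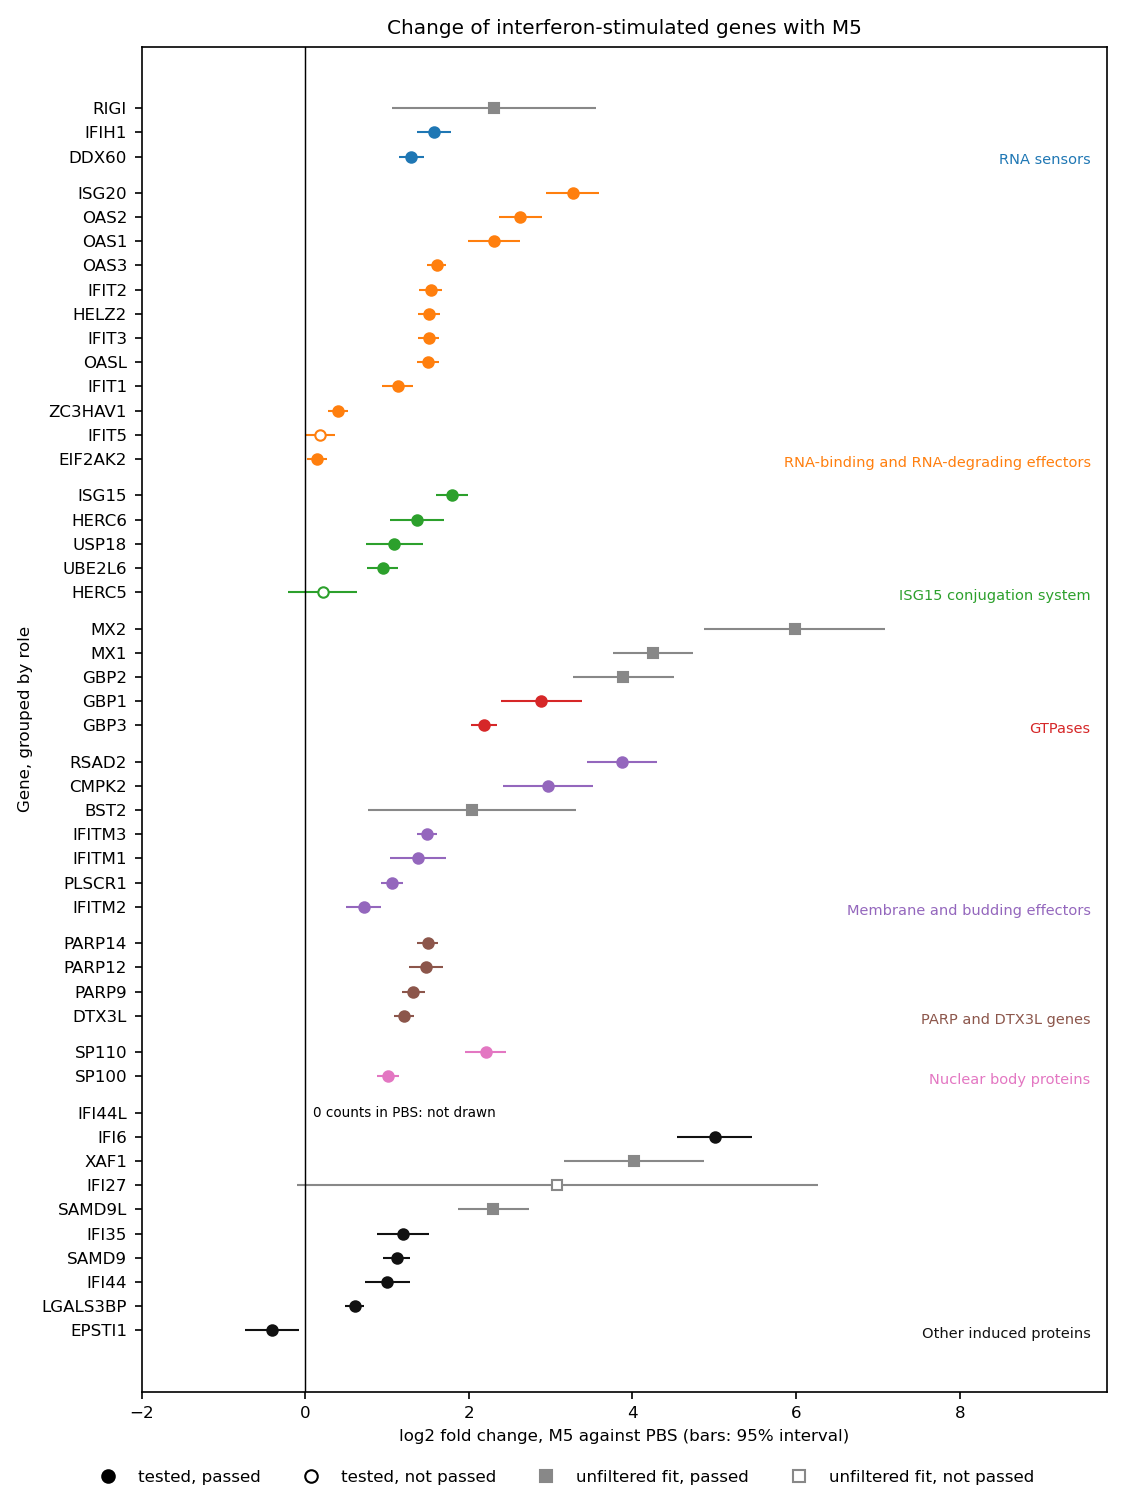
Log2 fold change of M5 against PBS (x axis) with its 95% interval (bars) for each member (y axis, grouped by role). Circles are members in the test and squares the 9 members below the filter, from the fit without a filter, with open symbols where the adjusted p was not under 0.05. IFI6 at 5.01 is the largest circle value, EPSTI1 at -0.41 lies left of 0, and IFI44L, with 0 counts in PBS, is not drawn.

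Of the 48 members, 25 lie in 10 genomic clusters in which neighbours are less than 100000 bases apart. In the OAS cluster (chromosome 12, 112906777 to 113011723), the 3 genes rose by 2.31, 1.61 and 2.63 in the order OAS1, OAS3, OAS2, and the most abundant of them, OAS3 at 9.12 and 9.03 FPKM in PBS, had the smallest change. Clusters with a member that did not pass, IFIT on chromosome 10 and HERC on chromosome 4 (88378739 to 88506163), held members that rose beside it.

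Members with an ISRE core in the window had a median log2 fold change of 1.51 in the fit without a filter (27 genes, from -0.38 to 5.03 apart from IFI44L, which had 0 counts in PBS and leaves the median at 1.51 when set to its lower bound), and those without had 1.89 (14 genes, from 0.43 to 4.02). OAS1, RSAD2, RIGI and XAF1 are among the latter, and their windows hold GAAACGAAA, a closer spacing that the search did not count. The split therefore follows the searched spacing and does not set apart members without any similar element. The window ends 250 bases before the RefSeq start, and a different start or a more distant element would not be seen.

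**Figure D4:**
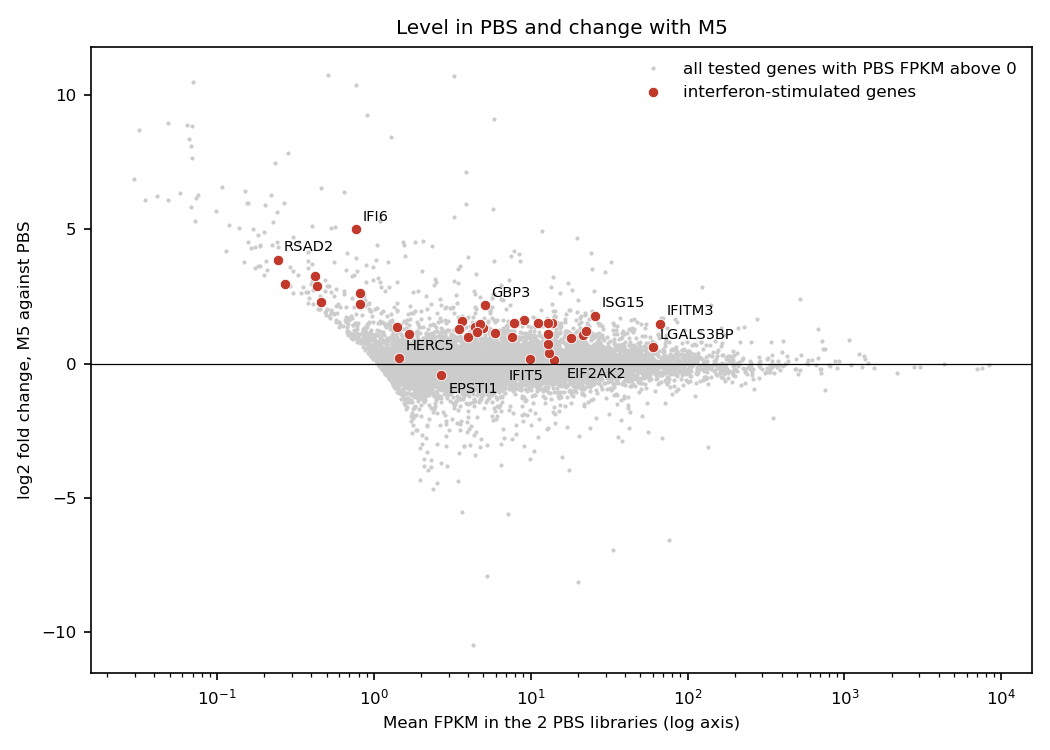
Mean FPKM in the PBS libraries (log x axis) against the log2 fold change of M5 against PBS (y axis) for the tested genes (grey, those with PBS FPKM above 0) and the 39 tested members (red). The slanted left edge is the filter, which admits genes under 1 FPKM in PBS only when they are higher in M5, and IFI6 and RSAD2 are such genes, while IFITM3 and LGALS3BP are at the abundant end.

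The genes that make and carry the interferon signal moved less. Of 37 such genes 33 had a row and 24 were tested. Of these 21 rose (28.8% of all genes tested rose), 8 of them at least 2-fold (6.48% of all tested). None fell (27.1% of all tested) and 3 did not pass. JAK2 and SOCS1, with PBS means of 0.737 and 0.561 FPKM, had to be higher in M5 to enter the test. SOCS1 is among the 8. The median log2 fold change of the 24 was 0.49. With library totals in place of TMM factors 14 passed as higher, and with limma 13, so the small rises depend on the scaling. Scaling by totals moved the median of all genes from -0.01 to -0.16, and gave 2201 genes higher and 4463 lower in place of 3114 and 2929.

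Among the interferons, IFNB1, IFNG, IFNL2 and IFNL3 had no row. IFNA1 held 0 counts in 3 libraries and 1 in M5 replicate 2, and IFNL1 only 2, in M5 replicate 1. IFNE, the epithelial interferon epsilon, had a log2 fold change of 0.02 (95% interval -0.60 to 0.64, adjusted p = 0.967). IFNK, the keratinocyte interferon kappa, held 0 and 5 counts in PBS and 24 and 42 in M5. Its value without a filter was 3.55 (adjusted p = 0.00416), and 2.59 without PBS replicate 1. Without PBS replicate 2 the remaining control library held 0 counts, and M5 was at least 10.0-fold higher against a floor of 3 counts in that library. The gene did not pass without M5 replicate 1 (adjusted p = 0.205) or M5 replicate 2 (adjusted p = 0.312).

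Of the receptor chains, IFNGR1, the ligand-binding chain for interferon gamma, changed most. It was at 22.4 and 21.8 FPKM in PBS and 70.4 and 76.4 in M5, a rise of 3.69-fold (log2 1.88, SE 0.06, adjusted p = 6.20e-15). IFNAR1, a chain of the type I receptor, was at 3.60 and 3.51 FPKM in PBS and 4.57 and 4.67 in M5 (log2 0.53, adjusted p = 1.59e-06), and IFNLR1 of the type III receptor rose by 0.43. The call of IFNLR1 was lost when PBS replicate 1, PBS replicate 2 or M5 replicate 2 was left out (adjusted p = 0.0568, 0.151 and 0.272). IFNGR2 had a value of 0.36 (95% interval -0.11 to 0.83) and did not pass. IFNAR2 and IL10RB held at most 62 counts in any library and did not pass, and 44.2% and 38.1% of their exon lengths overlap a readthrough gene.

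All 9 tested JAK, STAT and IRF genes rose (28.8% of all genes tested rose). STAT3, which carries signals of IL-22 and Oncostatin M, was at 25.3 and 24.9 FPKM in PBS and 47.4 and 45.8 in M5 (log2 1.04, adjusted p = 5.26e-12). STAT2, which joins the complex that binds the ISRE, was at 4.96 and 4.66 FPKM in PBS and 7.41 and 8.22 in M5 and is given by library after its values were seen. Both M5 libraries lay above both PBS libraries for STAT3 and for STAT2. The rises were 0.93 (JAK2), 0.85 (STAT2), 0.57 (IRF1), 0.45 (IRF2), 0.38 (JAK1), 0.24 (TYK2) and 0.21 (IRF3) on the log2 scale. TYK2 did not pass without PBS replicate 2 (adjusted p = 0.0545), and IRF3 without either PBS replicate (adjusted p = 0.0645 and 0.0677). IRF9, the DNA-binding partner of STAT2, held 1, 0, 1 and 1 counts, and 48.4% of its exon length overlaps another gene model on the same strand, and how reads in shared exons were assigned is not stated. IRF7 held 6 and 8 counts in PBS and 8 and 17 in M5 and did not pass.

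The sensing adaptors and kinases rose in 6 of 6 tested genes (28.8% of all genes tested rose). DHX58 (LGP2), a relative of RIGI, was at 1.29 and 1.38 FPKM in PBS and 2.66 and 3.03 in M5 (log2 1.24, adjusted p = 1.39e-05). IKBKE, a kinase that activates IRF factors, was at 7.29 and 7.58 FPKM in PBS and 15.7 and 15.8 in M5 (log2 1.23, adjusted p = 2.21e-10). CGAS, the sensor of cytosolic DNA, rose by 1.05, TBK1 by 0.28, the adaptor MAVS by 0.27 and TRIM25 by 0.16. TBK1 was lost without PBS replicate 2 (adjusted p = 0.108) or M5 replicate 1 (adjusted p = 0.0519), and TRIM25 without PBS replicate 1, PBS replicate 2 or M5 replicate 1 (adjusted p = 0.242, 0.0944 and 0.168). STING1, the adaptor of CGAS, held 0, 0, 1 and 1 counts. TLR3 had a value of -0.22 without a filter and did not pass.

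Of the feedback suppressors, SOCS3, which dampens signals through gp130 receptors, was at 2.19 and 1.48 FPKM in PBS and 38.3 and 37.9 in M5. SOCS1, which dampens interferon receptors, was at 0.564 and 0.557 FPKM in PBS and 6.68 and 7.45 in M5. Both were far above PBS in both M5 libraries (log2 4.53 and 3.80, adjusted p = 7.39e-17 and 8.89e-11). PTPN6 rose by 0.33, a call lost without M5 replicate 1 (adjusted p = 0.298), and PIAS1 had a value of -0.01 (95% interval -0.16 to 0.14).

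**Figure D5:**
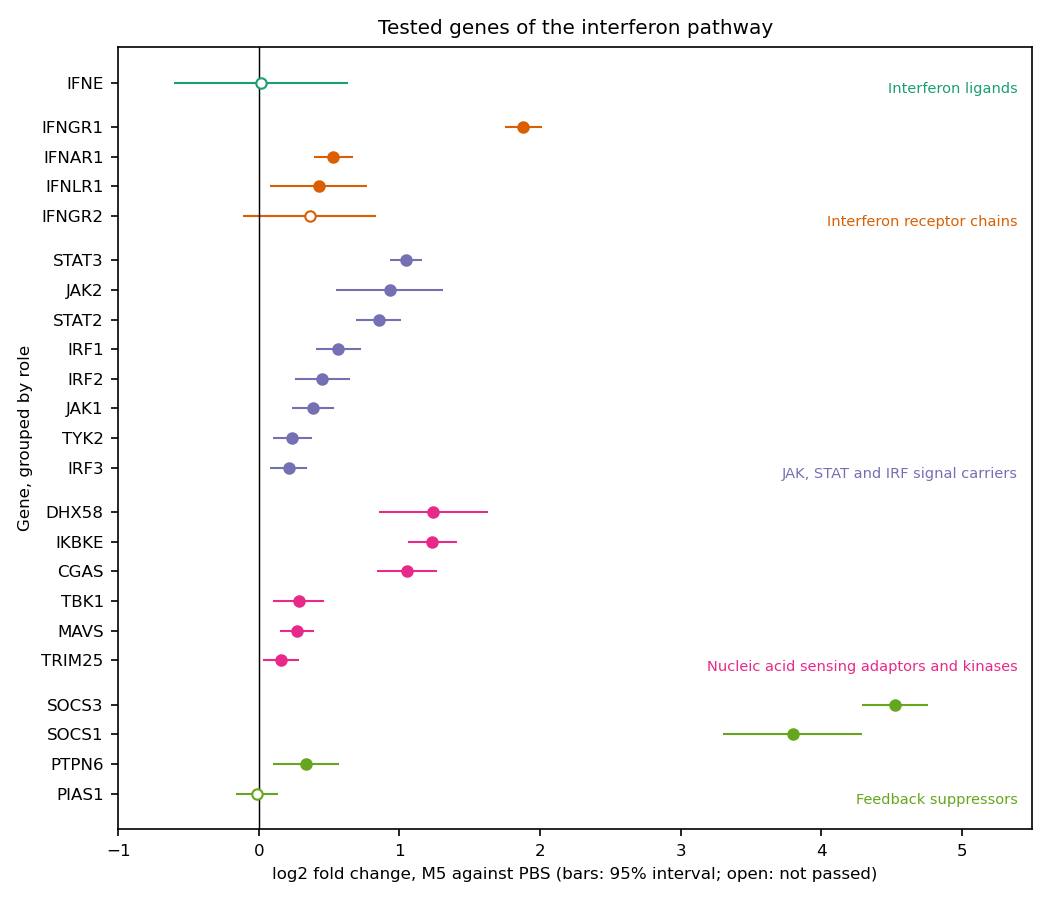
Log2 fold change of M5 against PBS (x axis) with its 95% interval (bars) for the tested genes of the interferon pathway that are reported here (y axis, grouped by role), with open circles where the adjusted p was not under 0.05. SOCS3 at 4.53, SOCS1 at 3.80 and IFNGR1 at 1.88 stand to the right, and most signal carriers lie between 0.2 and 1.1.

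Genes best known as targets of interferon gamma were also higher, mostly from very low counts. Of 10 such genes 8 had a row (CXCL9 and HLA-DRA had none), 2 were tested and both rose (28.8% of all genes tested rose). With a PBS mean of 0.304 FPKM, CD74 had to be higher in M5 to enter the test. CD74, the invariant chain of MHC class II, was at 0.265 and 0.344 FPKM in PBS and 1.54 and 1.88 in M5 (log2 2.63, adjusted p = 6.37e-08). WARS1, a tryptophan tRNA ligase, was at 34.2 and 35.5 FPKM in PBS and 72.2 and 76.9 in M5 (log2 1.25, adjusted p = 6.49e-13).

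Without a filter 8 of the 8 were higher, 7 without PBS replicate 1, and 3 without M5 replicate 1 and 3 without M5 replicate 2. Of all genes, 12.4% were higher in the fit of all 4 libraries without a filter. GBP5 had 0 counts in both PBS libraries and 112 and 136 in M5, at least 75.8-fold higher. The chemokine CXCL11 had 0 in PBS and 27 and 40 in M5, at least 20.5-fold higher, and CXCL10 held 0 and 1 against 11 and 17, a ratio of 25.7 (95% counting interval 4.24 to 1049). IDO1, which degrades tryptophan, held 0 and 1 against 12 and 9, a ratio of 19.2 (3.09 to 796). CIITA, the activator of MHC class II genes, and GBP4 had log2 fold changes of 1.89 and 1.81.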

How the data were processed

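Counts and FPKM of 4 HaCaT libraries (2 PBS, 2 M5) were analysed. Each deposited file gives both a count of reads and an FPKM per gene, per the file headers. HISAT2, HTSeq 0.13.5 and the build GRCh38 are listed in the submitters' processing notes. Gene annotation, strandedness at counting and handling of multiply aligned reads are not given in the sources here. The deposited FPKM equal the deposited counts over gene length and library total, with the authors' lengths (13021 bp for OAS1), so levels compared between genes depend on those lengths. The library kit named in the labels' protocols does not mark strand.

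Counts were tested with edgeR 4.0.16 (glmQLFit, glmQLFTest, R 4.3.3), two-sided, after TMM scaling, for genes averaging at least 1 FPKM, with Benjamini-Hochberg adjustment over all genes tested. The step was also run on simulated counts in which far fewer genes changed than were called here. That run therefore does not test the scaling when many genes change. An exact permutation test of 2 against 2 libraries cannot go below p = 0.333 for a single value. The SE and 95% interval of a log2 fold change were calculated back from the F statistic of the edgeR test. They are rough for genes with few counts. Floors (3 counts, 0.152 to 0.189 CPM in a library) and 95% counting intervals (Clopper-Pearson) cover counting error only. Alternatives were DESeq2 1.42.0, limma 3.58.1 on log2(FPKM + 1) and log2(FPKM + 0.1), other scalings, filters and thresholds, a replicate block and each library left out. The members and lists were chosen with earlier results of these data known. Every member is named, and values by library are given, within each role, for the largest change, the most abundant gene, and every tested gene that fell or did not pass. One gene of the pathway list and one marker are not reported here. Positions are from GENCODE 29 and promoters from RefSeq.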

Additional observations from a re-analysis of the deposited data

How the results depend on the processing

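Among the tested members, 35 to 37 rose under DESeq2, limma, both other scalings, the replicate block, an adjusted p under 0.01 and each library left out, and 26 where a mean FPKM of at least 5 was required. Only 28 members entered the test at a mean FPKM of at least 5. The single fall, EPSTI1, was called under fewer settings. The number of members that fell was 0 with DESeq2, without a filter, at an adjusted p under 0.01 and with the replicate block, and 0 to 1 when each library was left out. It was also 0 at a mean FPKM of at least 5, where EPSTI1 was not tested. The block left 36 members higher. The numbers do not pair the libraries (correlation of deviations -0.02), and the block gave 3134 genes higher and 2959 lower.

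The members' median of 1.38 was 1.06 and 1.22 with limma at pseudocounts of 1 and 0.1, 1.23 with library totals, 1.53 without a filter, 1.28 at a mean FPKM of at least 5, and 1.33 to 1.45 over the libraries left out. Of all genes, 2010 and 2005 were higher with limma at the 2 pseudocounts, and 4463 lower with library totals. Interferon pathway genes higher numbered 13 of 24 tested with limma at either pseudocount, and 12 of 14 tested at a mean FPKM of at least 5. At that filter only 1 interferon gamma type target entered the test. Interferon gamma type targets higher numbered 8 without a filter and 1 at a mean FPKM of at least 5, and, without a filter, 3 to 8 over the libraries left out.

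Directions reversed for values near 0: EIF2AK2 to -0.00433 and -0.00465 (limma) and -0.00384 (library totals), IFNE to -0.0817 and -0.127 (limma) and -0.134 (library totals), and PIAS1 to 0.015 without a filter. Over the libraries left out IFNE ran from -0.0396 to 0.0749 and PIAS1 from -0.0915 to 0.0714, and, without a filter, IFNAR2 from -0.128 to 0.716, IL10RB from -0.87 to 0.377 and IRF9 from -0.0882 to 3.14. The cause was not tested. For genes below the filter, the fits without one that also changed a second setting were chosen after seeing the data, and depth limits these genes: counts under 50 per library left wide intervals for RIGI, BST2, IFI27 and IFI44L.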
